A study of Drosophila melanogaster with 12 samples.

Results

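The genes described here come from families with proteins that Drosophila larvae secrete into the hemolymph, the insect blood. Among them are serpins, thioester-containing proteins (TEPs), transferrins, Gram-negative bacteria binding proteins (GNBPs) and C-type lectins. The others are nimrod B proteins, imaginal disc growth factors (Idgfs) and the clot protein fondue. The genes were chosen by symbol, not by evidence that each product is secreted. Symbols taken begin with Spn and a digit, Tep, Tsf, GNBP, lectin-, nimB, Idgf or PPO, or read Bc or fon. The rule found 45 of the 10047 genes in the deposited table. These were 16 serpins, 4 TEPs, 3 transferrins, 3 GNBPs, 8 lectins, 5 nimrod B genes, 5 Idgf genes and fon, and 0 rows matched PPO or Bc. Several carry older symbols, so that Spn1 is now Spn42Dd, Spn5 is Spn88Ea, Spn6 is Spn55B, Spn28D is Spn28Dc, and TepI to TepIV are Tep1 to Tep4.

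RNA came from the fat body of female larvae of Drosophila melanogaster at the wandering stage, the end of larval life, with 3 libraries in each of 4 groups. The EcR RNAi groups descend from males of the UAS-EcR RNAi line, VDRC stock 37058, and the control groups from males of VDRC stock 60000. Sample titles name the control genotype vw1118, written vvw1118 for replicate 1 on 0.15 M sucrose. The mothers in all 4 groups carried UAS-Dcr2, which is used to strengthen RNAi, and r4-GAL4, a driver active in the fat body, so the controls received both as well. Larvae of each genotype were reared on a modified semi-defined food with 0.5 M sucrose, the high-sugar diet, or with 0.15 M sucrose. The target, EcR, is the ecdysone receptor, a nuclear receptor that steers moulting and metamorphosis, and 1 RNAi stock was used.

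The larval fat body is the main source of hemolymph proteins, and blood cells, or hemocytes, make some of the same ones. GNBPs bind microbial cell walls and start chains of serine proteases that activate the cytokine Spätzle, the ligand of Toll, or the phenoloxidases that form melanin, while serpins block such proteases. TEPs resemble complement factors, C-type lectins bind sugars with the help of calcium, nimrod B proteins are the secreted relatives of phagocytic receptors, Idgfs are chitinase-like proteins without enzyme activity, and transferrins bind iron.

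Values are the authors' normalised signal per gene and library, not raw read counts, and the signal summed to between 8864826 and 15045575 per library. Replicate 1 of the controls on 0.5 M sucrose stood apart with the highest sum, against 10966639 in the next library, and it was the highest of its 3 libraries for 34 of the 45 genes, or 75.6%, against 42.5% of all genes. Calls among the 45 genes that were gained or lost without it are given with each gene. Libraries of the same group correlated at 0.967 to 0.984 on the log2 scale. Whether the 3 libraries of a group stem from different crosses is not in the labels, and p-values thus reflect a spread among samples that may be technical. All 8 fat body markers, among them the larval serum protein genes, were measured, with sums of 1916289 to 4206672 per library. Of these limma called 0 on 0.15 M sucrose, where 1 had an unadjusted p under 0.05, and 2 fell on 0.5 M sucrose in the libraries labelled EcR RNAi.

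EcR itself read 1235, 1023 and 1138 in the libraries labelled EcR RNAi and 1368, 1559 and 1214 in controls on 0.15 M sucrose. With 0.5 M sucrose EcR read 1346, 1770.5 and 1125 in the libraries labelled EcR RNAi and 1386, 1513 and 1463 in controls. The groups overlapped on both diets, with log2 differences of -0.28 ± 0.17 on 0.15 M and -0.06 ± 0.17 on 0.5 M sucrose (SE, limma with Benjamini-Hochberg adjusted p = 0.386 and 0.847), whose 95% intervals ran from -0.65 to 0.08 and from -0.43 to 0.30. The eye colour gene w, the usual marker on transgenes of this kind, was higher in the libraries labelled EcR RNAi on both diets, by 0.75 ± 0.19 on 0.15 M and 0.77 ± 0.19 on 0.5 M sucrose (log2, SE, limma with Benjamini-Hochberg adjusted p = 0.0132 and 0.00797). The call on 0.15 M sucrose was lost when control replicate 1 of that diet was left out (limma, Benjamini-Hochberg adjusted p = 0.0629). Differences in Dcr-2 were -0.32 ± 0.23 and 0.48 ± 0.23 (log2, SE) and were not called. Because EcR mRNA did not differ detectably, the groups are called EcRi-labelled below, and every direction is that of the label.

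On 0.15 M sucrose 18 of the 45 genes rose and 1 fell in the EcRi-labelled libraries. The serpin Spn43Ab, the recognition protein GNBP1, the iron carrier Tsf1 and lectin-24A rose most, and all 5 Idgf genes rose. With 0.5 M sucrose 9 of the 45 rose and 5 fell, with GNBP1 again among those that rose most, while 3 lectins, GNBP3 and the serpin Spn42Dc fell. A gene was called when limma's Benjamini-Hochberg adjusted p over all 10047 genes was under 0.05. Among all genes on 0.15 M sucrose, limma called 11.2%, of which 6.19% of genes were higher and 5.01% lower, against 42.2% of the 45. Among all genes on 0.5 M sucrose it called 19.1%, with 10.9% higher and 8.11% lower, against 31.1% of the 45. The 45 were chosen with earlier results of these data known, so these shares are not an independent comparison. The median log2 difference of the 45 genes was 0.63 on 0.15 M sucrose, where that of all genes was 0.04, and 0.17 on 0.5 M sucrose, where that of all genes was -0.002. On 0.5 M sucrose the median of the 45 was 0.06 without control 0.5 M replicate 2. On both diets 9 genes rose and 1 fell, 9 were called on 0.15 M sucrose alone and 4 on 0.5 M sucrose alone, and 0 were called in opposite directions. These tallies, without control 0.5 M replicate 1, were 15 higher and 2 lower on both diets, 5 called on 0.15 M sucrose alone and 3 on 0.5 M sucrose alone. In the other fits without 1 library 6 to 9 genes were higher on both diets, the fewest without control 0.15 M replicate 1 or EcRi 0.15 M replicate 2. The number called on 0.15 M sucrose alone was 0 without control 0.15 M replicate 3, 4 without any 1 of the EcRi 0.15 M libraries and 5 without control 0.15 M replicate 2, and that on 0.5 M sucrose alone was as high as 8, without control 0.15 M replicate 1. The difference between diets was tested by an interaction, given with the lectins.

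**Figure D1:**
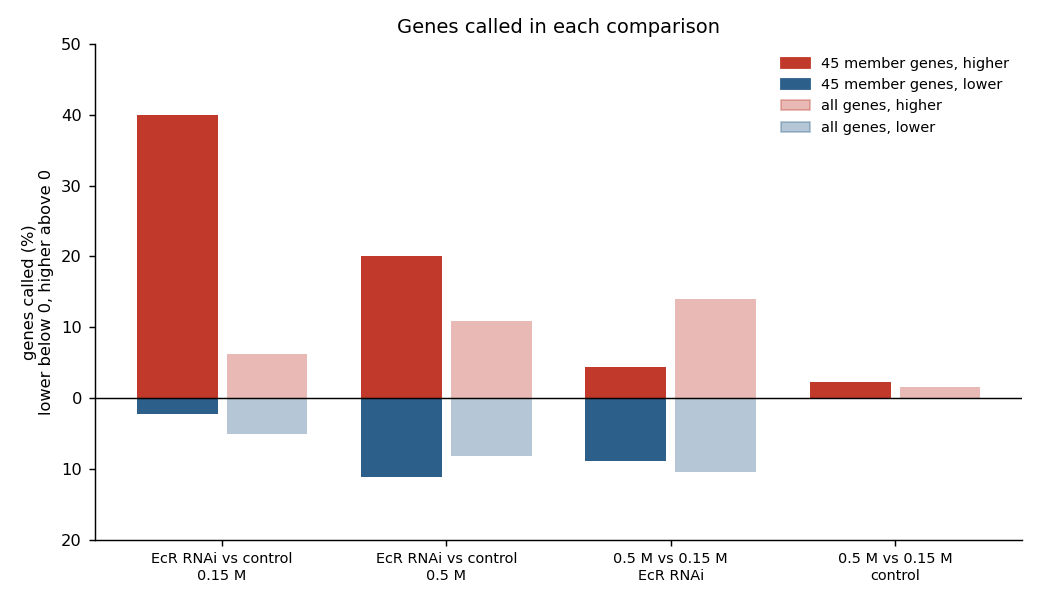
Bars give the percentage of genes called higher (above 0) or lower (below 0) by limma at an adjusted p under 0.05 in 4 comparisons, dark for the 45 genes described here and pale for all 10047 genes. On 0.15 M sucrose 18 of the 45 were higher in the EcRi-labelled libraries, against 6.19% of all genes, while for 0.5 M against 0.15 M sucrose the shares of the 45 stayed close to or below those of all genes.

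These counts moved with single libraries. The count on 0.15 M sucrose was 8 without control 0.15 M replicate 3, 11 without EcRi 0.15 M replicate 2 and 12 without EcRi 0.15 M replicate 1. The 8 genes that kept the call in every fit without 1 library were GNBP1, Tsf1, Spn43Ab, Spn28D, Spn6, Spn42Dc, nimB2 and lectin-24A. Of the 14 calls on 0.5 M sucrose 12 were kept in every such fit. Without control 0.5 M replicate 1, the library that stood apart, 16 of the 45 genes rose and 4 fell on 0.5 M sucrose, beside 11.9% and 7.50% of all genes. Salivary gland glue genes, markers of another tissue, were also lower in the EcRi-labelled libraries. All 6 measured of 8 listed fell on 0.15 M sucrose, with summed signals of 1284 to 3816 in EcRi-labelled and 18723 to 21877 in control libraries, and 3 fell on 0.5 M sucrose, with sums of 1869 to 6896 in EcRi-labelled and 6399 to 28470 in control libraries. Less salivary gland tissue and less glue gene RNA per cell cannot be told apart in these sums. The part of the glue genes in these results was not tested. The salivary counts were as low as 3, without control 0.15 M replicate 1, and 4 without any 1 of the other 5 libraries on 0.15 M sucrose, and on 0.5 M sucrose 1 without control 0.5 M replicate 3 or EcRi 0.5 M replicate 3 and 2 without replicate 2 of either genotype.

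**Figure D2:**
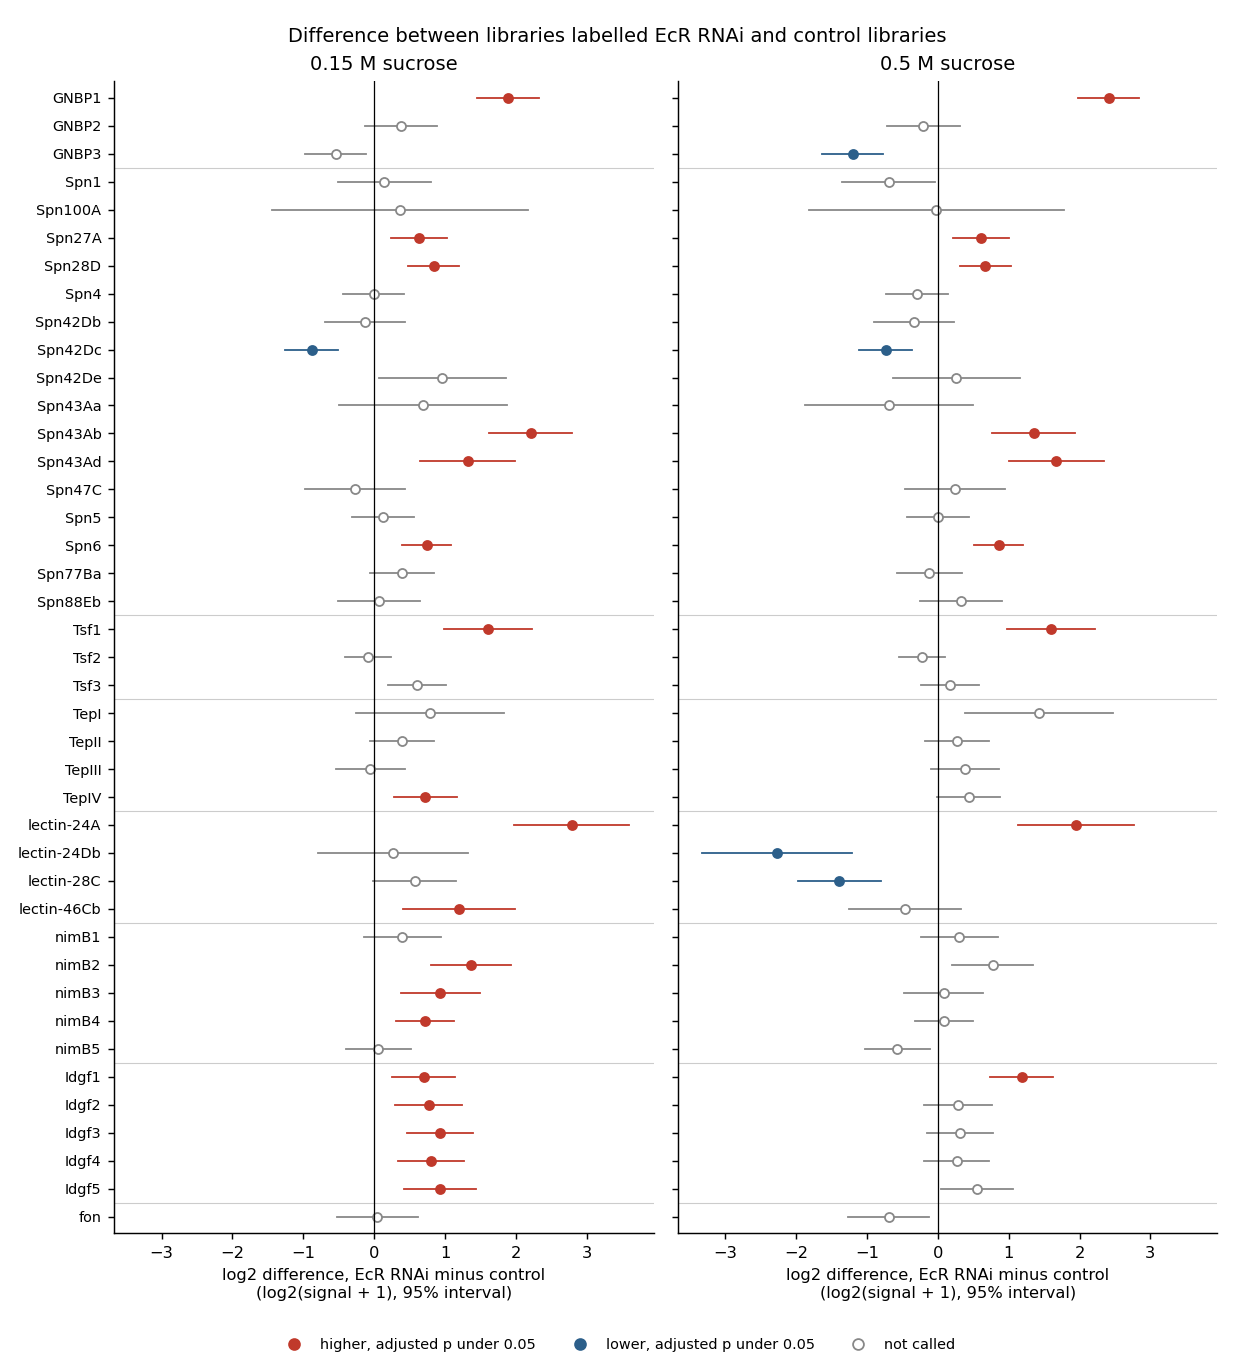
Points give the log2 difference of EcRi-labelled minus control libraries for the 41 genes with a mean signal of at least 10, with 95% intervals from limma, on 0.15 M sucrose (left) and 0.5 M sucrose (right), grouped by family. Filled points passed an adjusted p of 0.05. The 5 Idgf genes, nimB2, nimB3 and nimB4 are filled on 0.15 M sucrose and, apart from Idgf1, open on 0.5 M sucrose, while GNBP1, Tsf1, Spn43Ab and lectin-24A lie well to the right on both.

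Of the 3 recognition genes named GNBP, GNBP1 rose on both diets and GNBP3 fell on 0.5 M sucrose. GNBP1 (FBgn0040323) works with PGRP-SA to sense Gram-positive bacteria and activate Toll. It read 909, 1059 and 898 in EcRi-labelled and 246, 302 and 227 in control libraries on 0.15 M sucrose. GNBP1 on 0.5 M sucrose read 1511, 1739 and 1506 in EcRi-labelled and 446, 231 and 252 in control libraries. Every EcRi-labelled library lay above every control library, with log2 differences of 1.89 ± 0.20 on 0.15 M and 2.41 ± 0.20 on 0.5 M sucrose (SE, limma with Benjamini-Hochberg adjusted p = 7.82e-06 and 5.02e-07). GNBP3 (FBgn0040321), the sensor of fungal beta-glucan, read 1624, 1780.2 and 1815 in EcRi-labelled and 2755, 2192 and 2695 in control libraries on 0.15 M sucrose. GNBP3 on 0.5 M sucrose read 1556, 1644 and 1397 in EcRi-labelled and 5179, 2853 and 2953 in control libraries. The EcRi-labelled libraries lay below the controls on both diets, with a log2 difference of -0.54 ± 0.21 (SE, limma with Benjamini-Hochberg adjusted p = 0.113), not called, and of -1.20 ± 0.21 (log2, SE, limma with Benjamini-Hochberg adjusted p = 0.000469). Without control 0.5 M replicate 1, which enters the shared estimate of the spread, GNBP3 was also called lower on 0.15 M sucrose, at -0.54 ± 0.12 (log2, SE, limma with Benjamini-Hochberg adjusted p = 0.00675). GNBP2, for which no role is given here, lay between 114 and 367 over all libraries and was not called. GNBP2 and GNBP1 are neighbours, with 0 genes between them in the Ensembl BDGP6 gene order.

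Downstream of these sensors, the list of the Toll protease cascade held 10 measured of 12 genes. The list had 3 higher and 0 lower on 0.15 M sucrose, with a median log2 difference of 0.40, and 4 had an unadjusted p under 0.05. SPE, the protease that cleaves Spätzle, read 843, 714 and 788 in EcRi-labelled and 259.8, 262 and 235 in control libraries, a log2 difference of 1.63 ± 0.30 (SE, limma with Benjamini-Hochberg adjusted p = 0.00250). CG6361, now Hayan, a protease of the Toll and melanin cascades, and nec, a serpin that restrains Toll activation, rose by 0.79 ± 0.20 and 0.86 ± 0.22 (log2, SE). Leaving out control 0.15 M replicate 1 ended the call of CG6361 (limma, Benjamini-Hochberg adjusted p = 0.0561), and that of nec was lost without the same library, control 0.15 M replicate 2 or EcRi 0.15 M replicate 2 or 3 (adjusted p up to 0.0712). On 0.5 M sucrose 1 rose, spz, the gene of Spätzle, with a 2.46-fold higher signal (limma, Benjamini-Hochberg adjusted p = 0.00184), and 1 fell, spirit, a protease of the cascade, by 0.79 ± 0.23 (on the log2 scale, SE, limma with Benjamini-Hochberg adjusted p = 0.0243). The call of spirit was lost without EcRi 0.5 M replicate 1 or 3 (limma, Benjamini-Hochberg adjusted p up to 0.0988), and without control 0.5 M replicate 1 the list had 3 higher and 1 lower.

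Among the 16 serpins 5 rose and 1 fell on each diet, and these were the same 6 genes. Spn43Ab (FBgn0024293) had the largest signal per kilobase of exon among the 15 serpins with a length. It read 7817, 7433 and 5519.9 in EcRi-labelled and 1504, 1719 and 1248 in control libraries on 0.15 M sucrose. Spn43Ab on 0.5 M sucrose read 4762, 6919 and 5631 in EcRi-labelled and 3699.8, 1490.2 and 2003 in control libraries. No control library reached an EcRi-labelled one on either diet, with log2 differences of 2.21 ± 0.28 on 0.15 M and 1.36 ± 0.28 on 0.5 M sucrose (SE, limma with Benjamini-Hochberg adjusted p = 3.98e-05 and 0.00227). Its neighbour Spn43Ad (FBgn0044011), with 0 genes between them, read 150.0, 153 and 106 in EcRi-labelled and 38.1, 82.8 and 48.0 in control libraries on 0.15 M sucrose. Spn43Ad on 0.5 M sucrose read 111, 167 and 153 in EcRi-labelled and 70.2, 31.5 and 37.8 in control libraries. The groups were again apart on both diets, by 1.32 ± 0.31 on 0.15 M and 1.67 ± 0.31 on 0.5 M sucrose (log2, SE, limma with Benjamini-Hochberg adjusted p = 0.0115 and 0.00146). The first of these calls was lost in 4 of the fits without 1 library, those without control 0.15 M replicate 1 or 3 or EcRi 0.15 M replicate 1 or 2 (limma, Benjamini-Hochberg adjusted p up to 0.0572).

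Spn28D (FBgn0031973) and Spn27A (FBgn0028990) both restrain melanization, and Spn27A also inhibits the protease Easter in the Toll pathway of the embryo. Spn28D read 269, 299.5 and 309 in EcRi-labelled and 184, 148 and 158 in control libraries on 0.15 M sucrose. Spn28D on 0.5 M sucrose read 322, 325 and 306 in EcRi-labelled and 262, 159 and 189 in control libraries. The EcRi-labelled libraries were higher throughout, by 0.84 ± 0.17 on 0.15 M and 0.67 ± 0.17 on 0.5 M sucrose (log2, SE, limma with Benjamini-Hochberg adjusted p = 0.00246 and 0.00903). Spn27A read 2024, 2201 and 1799 in EcRi-labelled and 1326, 1376 and 1182 in control libraries on 0.15 M sucrose. Spn27A on 0.5 M sucrose read 1871, 2100.2 and 2293 in EcRi-labelled and 1849.6, 1086 and 1256 in control libraries. These groups did not overlap, with control 0.5 M replicate 1 only just under the lowest EcRi-labelled library, and the differences were 0.63 ± 0.19 on 0.15 M and 0.61 ± 0.19 on 0.5 M sucrose (log2, SE, limma with Benjamini-Hochberg adjusted p = 0.0377 and 0.0298). Both calls of Spn27A were fragile. On 0.15 M sucrose the call was lost without any 1 of the 3 control libraries, without EcRi 0.15 M replicate 1 or 2 and without EcRi 0.5 M replicate 2 (limma, Benjamini-Hochberg adjusted p up to 0.142). On 0.5 M sucrose it was lost without control 0.5 M replicate 2 or 3 or EcRi 0.5 M replicate 2 or 3 (adjusted p up to 0.125), and without control 0.5 M replicate 1 the difference was 0.83.

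Spn6 (FBgn0028983) moved with genotype and with diet. Spn6 on 0.15 M sucrose read 434, 423 and 401 in EcRi-labelled and 299.6, 251 and 208 in control libraries. Spn6 on 0.5 M sucrose read 829, 697 and 762 in EcRi-labelled and 491, 340.4 and 442 in control libraries. All 4 contrasts of pairs of groups were called with no overlap, the genotype differences being 0.74 ± 0.16 on 0.15 M and 0.86 ± 0.16 on 0.5 M sucrose (log2, SE, limma with Benjamini-Hochberg adjusted p = 0.00517 and 0.00111). Spn42Dc (FBgn0033113) was the serpin that fell, and it read 246, 243 and 301 in EcRi-labelled and 492, 454 and 503 in control libraries on 0.15 M sucrose. Spn42Dc on 0.5 M sucrose read 340.3, 355 and 261 in EcRi-labelled and 698, 472 and 443 in control libraries. Each EcRi-labelled library lay below each control, with differences of -0.88 ± 0.18 on 0.15 M and -0.73 ± 0.18 on 0.5 M sucrose (log2, SE, limma with Benjamini-Hochberg adjusted p = 0.00258 and 0.00708). Among the genes that could be placed in the Ensembl order, Spn42Dc stands in a run of 4 adjacent serpin genes, Spn42Db, Spn42Dc, Spn1 and Spn42De. The others of the run were not called. Spn4, whose ID matched no current gene, was not placed, so whether it adjoins this run was not tested. Spn42Dc and Spn1 share 63 exon bases in the Ensembl models, so reads there can count for both.

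**Figure D3:**
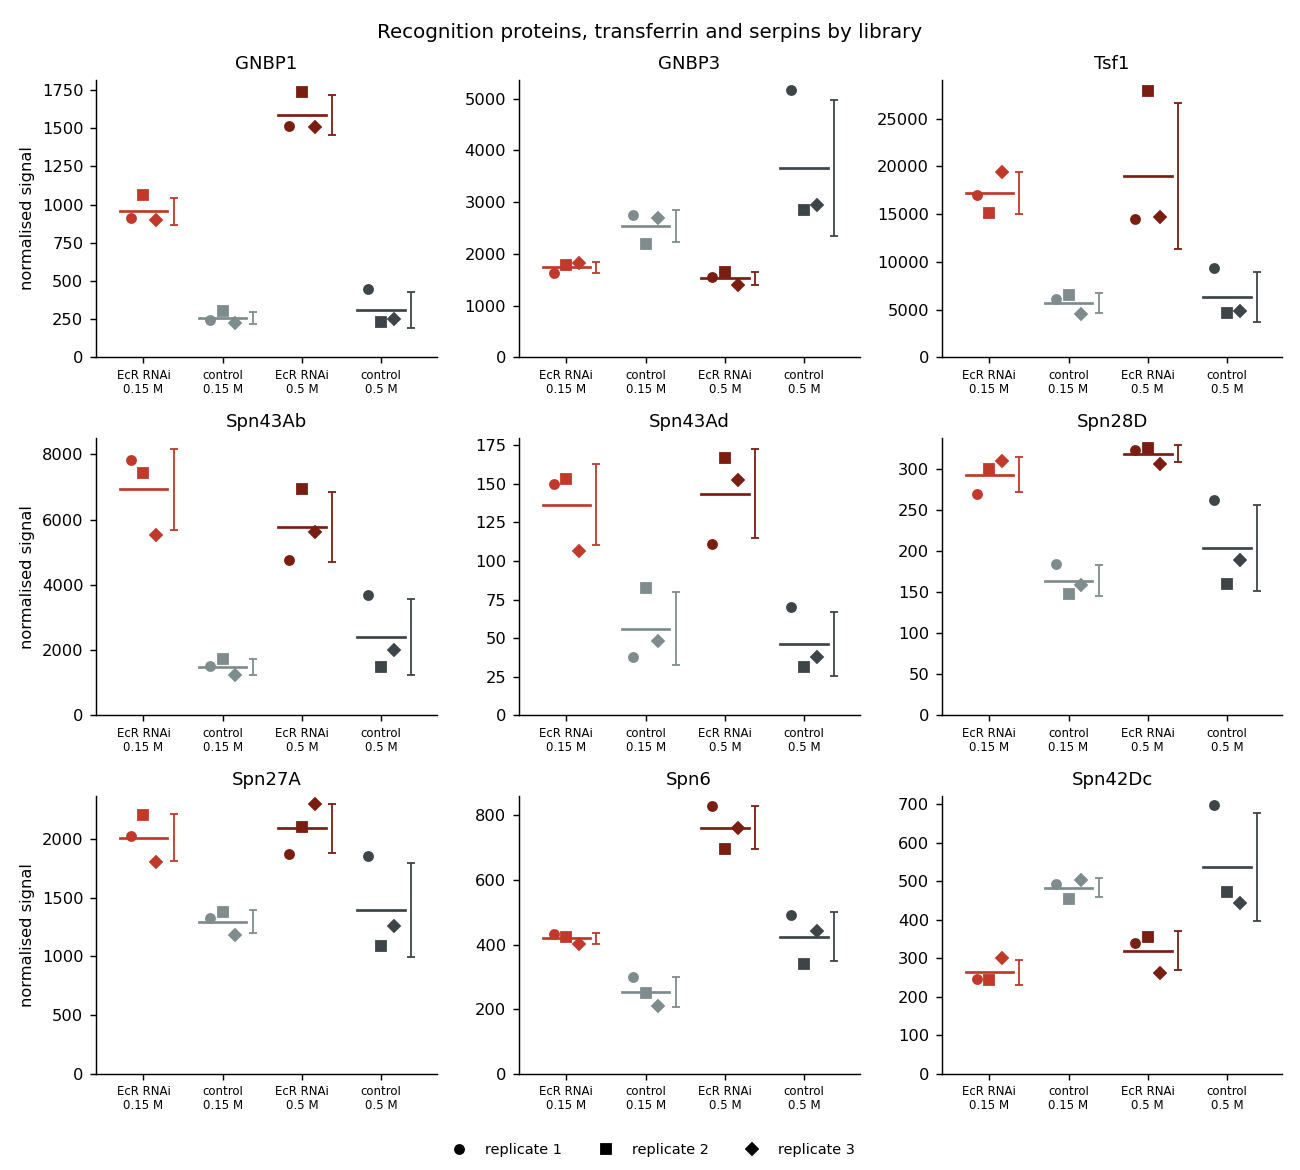
Each panel plots the normalised signal of 1 gene in every library, with marker shapes for replicates 1 to 3, a line at the group mean and a bar of 1 SD, EcRi-labelled groups standing left of their controls. GNBP1, Tsf1, Spn43Ab and Spn43Ad are separated on both diets, Spn42Dc and GNBP3 run the other way, and replicate 1 of the 0.5 M controls is the highest of its group in all 9 panels.

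Of the transferrins, Tsf1 (FBgn0022355), the main iron carrier of the hemolymph, rose on both diets. It read 17049, 15127 and 19461 in EcRi-labelled and 6121, 6485 and 4491 in control libraries on 0.15 M sucrose. Tsf1 on 0.5 M sucrose read 14512, 27866 and 14723 in EcRi-labelled and 9354, 4665 and 4897 in control libraries. The lowest EcRi-labelled library on 0.5 M sucrose lay well above the highest control, and the differences were 1.61 ± 0.29 on 0.15 M and 1.60 ± 0.29 on 0.5 M sucrose (log2, SE, limma with Benjamini-Hochberg adjusted p = 0.00125 and 0.000903). Tsf2, which acts at septate junctions, differed by -0.09 and -0.22, and Tsf3 by 0.61 and 0.17, with 0 calls among them. Without control 0.5 M replicate 1 Tsf3 was called higher on 0.15 M sucrose, at 0.61 ± 0.16 (log2, SE, limma with Benjamini-Hochberg adjusted p = 0.0149), and likewise without replicate 2 of either control group or EcRi 0.15 M replicate 2 (adjusted p of 0.0334 to 0.0462).

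Of 7 listed genes of iron handling 6 were measured, of which limma called 3 on 0.15 M and 5 on 0.5 M sucrose. On 0.15 M sucrose 2 rose and 1 fell, and on 0.5 M sucrose 4 rose and 1 fell, with medians of 0.30 and 0.66. Irp-1A, the iron regulatory protein, read 772, 721 and 897 in EcRi-labelled and 2279.7, 2039.9 and 2643 in control libraries on 0.15 M sucrose. Irp-1B, its close relative, read 6265, 5374 and 5762 in EcRi-labelled and 2314, 2694 and 1886 in control libraries on the same diet. The first fell by 1.54 ± 0.19 (on the log2 scale, SE, limma with Benjamini-Hochberg adjusted p = 2.69e-05) and the second rose by 1.35 ± 0.21 (log2, SE, limma with Benjamini-Hochberg adjusted p = 0.000261). With 0.5 M sucrose the differences were -1.35 ± 0.19 and 1.44 ± 0.21 (log2, SE). Fer2LCH, a subunit of ferritin, the iron storage protein, rose by 0.66 and 0.84 on the log2 scale, and on 0.15 M sucrose its call was lost without control 0.15 M replicate 2 or 3 or EcRi 0.15 M replicate 2 (limma, Benjamini-Hochberg adjusted p up to 0.103), leaving 1 gene of the list higher.

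Among the 4 TEPs, TepIV (FBgn0041180) was called on 0.15 M sucrose. It read 1095, 1516 and 1456 in EcRi-labelled and 1103, 664 and 736 in control libraries. The highest control lay just above the lowest EcRi-labelled library, and the difference was 0.72 ± 0.21 (log2, SE, limma with Benjamini-Hochberg adjusted p = 0.0334). That call was lost without control 0.15 M replicate 2 or 3 or EcRi 0.15 M replicate 2 or 3 (limma, Benjamini-Hochberg adjusted p up to 0.168). TepIV on 0.5 M sucrose read 1169.5, 1067 and 894 in EcRi-labelled and 980.2, 666 and 693 in control libraries, at 0.43 (log2) with all libraries and, leaving out control 0.5 M replicate 1, 0.61 ± 0.20 (SE, limma with Benjamini-Hochberg adjusted p = 0.0497). TepII, a phagocytosis factor with the largest level of the TEPs per kilobase of exon, read 5903, 6344 and 7064 in EcRi-labelled and 5211, 5292 and 4257 in control libraries on 0.15 M sucrose. Those groups did not overlap, but the difference of 0.39 ± 0.21 (log2, SE) was not called. TepI differed by 1.43 ± 0.47 on 0.5 M sucrose without overlap (limma, Benjamini-Hochberg adjusted p = 0.0611), and TepIII by -0.06 and 0.38. TepI was called higher there without control 0.15 M replicate 1, control 0.5 M replicate 2 or EcRi 0.5 M replicate 2, at 1.43 to 1.80 (log2, limma with Benjamini-Hochberg adjusted p of 0.0226 to 0.0482). The related gene Mcr, a TEP-like protein of septate junctions, differed by -0.10 and 0.085 and was not called.

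All 5 Idgf genes rose on 0.15 M sucrose. Their products support the growth of cultured imaginal disc cells, and Idgf3 is also a clot protein. Idgf1 (FBgn0020416) read 469, 735 and 667 in EcRi-labelled and 409, 359 and 366 in control libraries on 0.15 M sucrose. Idgf2 read 1749.9, 2091 and 2051 in EcRi-labelled and 1268, 1165 and 1031 in control libraries there. Idgf3 read 5338, 4971 and 5587 in EcRi-labelled and 2982, 3072 and 2339 in control libraries on that diet. In none of these genes did a control library reach an EcRi-labelled one. Idgf4 read 5401, 5938 and 6952 in EcRi-labelled and 3312, 4024 and 3188 in control libraries on 0.15 M sucrose. Idgf5 read 1714, 1569.8 and 1682 in EcRi-labelled and 953, 1046 and 661 in control libraries. The differences were close to each other, from 0.70 for Idgf1 to 0.93 for Idgf3 and Idgf5, and their adjusted p lay between 0.00914 and 0.0393 (limma, Benjamini-Hochberg).

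None of the 5 calls was kept in every fit without 1 library. Without control 0.15 M replicate 3 all 5 were lost, at differences of 0.68, 0.69, 0.81, 0.73 and 0.73 for Idgf1 to Idgf5. Other libraries whose absence ended calls were the other 2 controls and EcRi replicates 2 and 3 for Idgf1, both of those controls and all 3 EcRi replicates for Idgf2, control replicate 1 and EcRi replicates 2 and 3 for Idgf4, and EcRi replicates 1 and 3 for Idgf5, all on 0.15 M sucrose. Idgf1 and Idgf2 also missed the threshold without EcRi 0.5 M replicate 2, and Idgf1 without EcRi 0.5 M replicate 3. The highest adjusted p in any such fit was 0.176 for Idgf1, 0.131 for Idgf2, 0.0557 for Idgf3 and 0.0939 for Idgf5 (limma, Benjamini-Hochberg).

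On 0.5 M sucrose Idgf1 rose and the other four were not called. Idgf1 read 942, 766 and 756 in EcRi-labelled and 515, 312 and 290.3 in control libraries, apart from each other by 1.18 ± 0.21 (log2, SE, limma with Benjamini-Hochberg adjusted p = 0.000636). Idgf3 read 4129.6, 4892 and 4414 in EcRi-labelled and 5417, 2817 and 3030.3 in control libraries, where replicate 1 of the controls topped all 3 EcRi-labelled libraries. The same library was also the highest of the 6 for Idgf2 and Idgf4, and Idgf2 to Idgf5 differed by 0.28, 0.32, 0.26 and 0.55. Without it their differences were 0.61, 0.61, 0.53 and 0.87 and all passed (limma, Benjamini-Hochberg adjusted p from 0.00282 to 0.0302). Idgf1, Idgf2 and Idgf3 are adjacent genes. CG5210, now Idgf6, which the rule on symbols did not take, read 13033, 14046 and 15333 in EcRi-labelled and 8673, 9692 and 6477 in control libraries on 0.15 M sucrose, a difference of 0.79 ± 0.26 that was not called (limma, Benjamini-Hochberg adjusted p = 0.0646). Of the chitinases proper, 8 genes were measured under 9 of 11 listed names, Cht3 and Cht10 being 1 gene, and 0 rose and 1 fell on 0.15 M sucrose, Cht11 by 0.91 ± 0.17 (on the log2 scale, SE, limma with Benjamini-Hochberg adjusted p = 0.00136). On 0.5 M sucrose Cht6 rose by 0.67 and Cht11 fell by 0.62, and both calls were lost without EcRi 0.5 M replicate 1 (limma, Benjamini-Hochberg adjusted p up to 0.0625), that of Cht11 also when control 0.5 M replicate 1 was left out, at 0.0544.

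Of the nimrod B genes, which lie in a run of 5 with 0 genes between them, 3 rose on 0.15 M sucrose. nimB2 (FBgn0028543) read 9935, 8990.0 and 8374 in EcRi-labelled and 4052, 4165 and 2583 in control libraries. nimB3 (FBgn0054003) read 2768, 2839 and 2146 in EcRi-labelled and 1568, 1434 and 1082 in control libraries. nimB4 (FBgn0028542), whose product aids the removal of dying cells by macrophages, read 1389.5, 1397 and 1171 in EcRi-labelled and 840.4, 835 and 732 in control libraries. All 9 EcRi-labelled values lay above the control values of the same gene, with differences of 1.37 ± 0.27 (log2, SE, limma with Benjamini-Hochberg adjusted p = 0.00225), 0.93 ± 0.26 (log2, SE, limma with Benjamini-Hochberg adjusted p = 0.0303) and 0.72 ± 0.19 (log2, SE, limma with Benjamini-Hochberg adjusted p = 0.0222). The calls of nimB3 and nimB4 were lost without control 0.15 M replicate 2 or 3 or EcRi 0.15 M replicate 1 or 2 (limma, Benjamini-Hochberg adjusted p up to 0.130 and 0.0912). nimB5, whose product is released by the fat body and limits hemocyte numbers on poor food, read 767, 838 and 843 in EcRi-labelled and 924, 823 and 628 in control libraries on 0.15 M sucrose. Those groups overlapped, and neither nimB5 nor nimB1, at 0.06 and 0.40, was called.

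For 0.5 M sucrose limma called 0 of the 5 nimrod B genes, and 2 had an unadjusted p under 0.05. nimB2 read 8372, 10207 and 9534 in EcRi-labelled and 8762, 3642 and 5101 in control libraries. Replicate 1 of the controls lay inside the range of the EcRi-labelled libraries, and the difference was 0.77 ± 0.27 (log2, SE, limma with Benjamini-Hochberg adjusted p = 0.0547). Without that library nimB2 rose by 1.12 ± 0.20 (log2, SE, limma with Benjamini-Hochberg adjusted p = 0.00102), and it was also called without control 0.15 M replicate 3 (adjusted p = 0.0445). nimB3 and nimB4 differed by 0.085 and 0.083, and nimB5 by -0.57 with all EcRi-labelled libraries below the controls (limma, Benjamini-Hochberg adjusted p = 0.0821). Leaving out control 0.5 M replicate 2, nimB5 was called lower, at -0.80 ± 0.21 (log2, SE, limma with Benjamini-Hochberg adjusted p = 0.0140). Of 7 membrane receptors of the nimrod family and their kin 6 were measured, and nimC2 read 256, 232 and 364 in EcRi-labelled and 6675, 5189 and 7806 in control libraries on 0.15 M sucrose. The log2 difference of nimC2 was -4.53 ± 0.22 (SE, limma with Benjamini-Hochberg adjusted p = 2.26e-09). That receptor list had 1 gene that rose and 1 that fell on each diet, nimC3 rising by 0.82 on 0.15 M sucrose, drpr, the engulfment receptor Draper, by 0.89 on 0.5 M sucrose, and nimC2 falling on both.

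**Figure D4:**
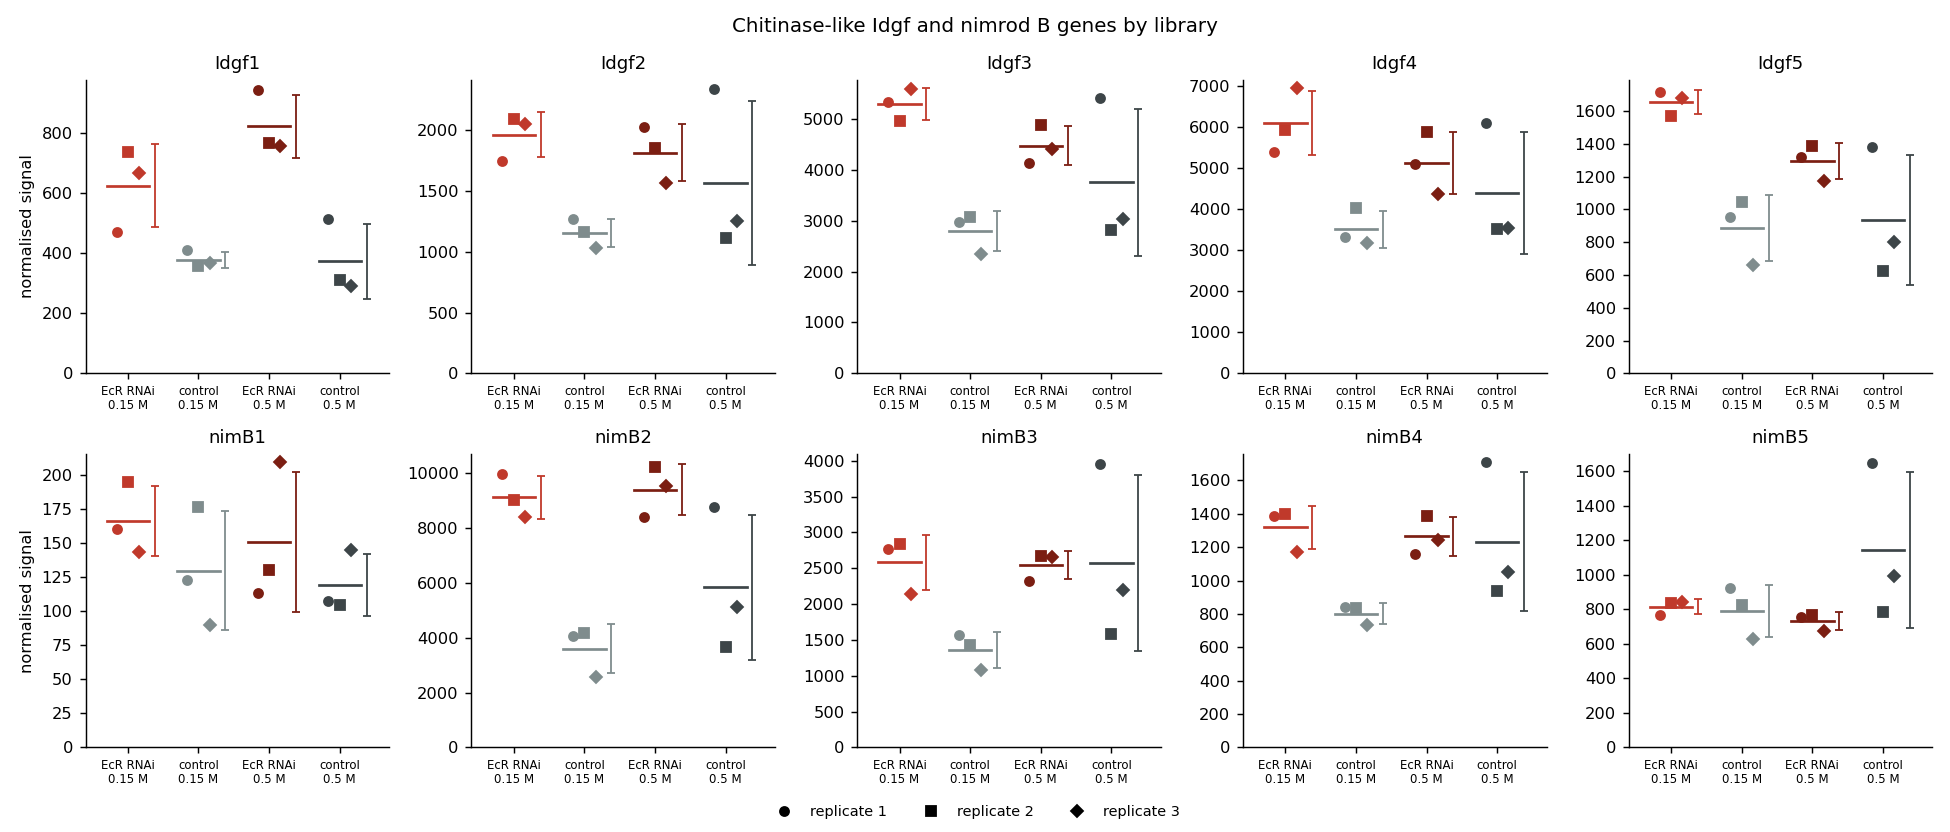
Panels plot the normalised signal of the 5 Idgf genes (top) and the 5 nimrod B genes (bottom) in every library, with marker shapes for replicates, lines at group means and bars of 1 SD. On 0.15 M sucrose the EcRi-labelled libraries lie above the controls for Idgf1 to Idgf5, nimB2, nimB3 and nimB4, and on 0.5 M sucrose replicate 1 of the controls (circle) is the highest of its group for all genes shown except nimB1.

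Hemocytes make several of these proteins, so their markers are given here. All 12 markers listed were measured and above 0 in every library. Of these 3 rose and 1 fell on 0.15 M sucrose, with sums of 6573 to 8131 in EcRi-labelled and 5441 to 7282 in control libraries. A further count on 0.5 M sucrose found 2 higher and 1 lower, with sums of 8115 to 10007 in EcRi-labelled and 6320 to 7106 in control libraries. Without Pxn the other 11 summed to 3134 to 3511 in EcRi-labelled and 3538 to 4065 in control libraries on 0.5 M sucrose, below the controls, and the median log2 difference of all 12 there was -0.05. A large part of those sums was the marker Glt, whose groups overlapped. Glt read 2000, 2087 and 1422 in EcRi-labelled and 2306, 1773 and 1506 in control libraries. On 0.15 M sucrose the 11 summed to 3987 to 5101 in EcRi-labelled and 3880 to 5552 in control libraries, which overlapped. Pxn, the extracellular matrix enzyme peroxidasin, rose by 0.80 and 0.93 on the log2 scale. The lamellocyte markers alphaPS4 and atilla rose on 0.15 M sucrose, atilla reading 43.7, 77.1 and 64.3 in EcRi-labelled and 22.4, 13.3 and 3.12 in control libraries. Hml, which marks most hemocytes, read 445, 619.7 and 756 in EcRi-labelled and 1709.9, 1036 and 584 in control libraries on 0.15 M sucrose and was not called. Muscle markers had 0 calls by limma among 9 on either diet, 4 of them with an unadjusted p under 0.05 on 0.15 M and 0 on 0.5 M sucrose. The part of hemocytes and muscle in the results above was not tested. In RNA from whole tissue, fewer cells of a type and less RNA per cell cannot be told apart. None of the gonad genes vas, nos, bam and zpg was found in the table.

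Of the 8 lectins 2 rose on 0.15 M sucrose and 1 rose and 3 fell on 0.5 M sucrose in the EcRi-labelled libraries, and 4 were lower on 0.5 M than on 0.15 M sucrose within those libraries. Of these, lectin-24A (FBgn0040104), which is induced after parasitoid wasp attack, rose on both diets. lectin-24A read 105, 155 and 54.2 in EcRi-labelled and 13.1, 16.6 and 10.2 in control libraries on 0.15 M sucrose. lectin-24A on 0.5 M sucrose read 48.5, 68.4 and 122 in EcRi-labelled and 24.4, 14.5 and 17.6 in control libraries. The EcRi-labelled libraries varied more than the controls but lay above them throughout, by 2.79 ± 0.38 on 0.15 M and 1.95 ± 0.38 on 0.5 M sucrose (log2, SE, limma with Benjamini-Hochberg adjusted p = 9.72e-05 and 0.00172). lectin-46Cb (FBgn0040092) read 24.3, 18.8 and 17.1 in EcRi-labelled and 5.14, 9.94 and 10.2 in control libraries on 0.15 M sucrose. It was called at 1.20 ± 0.37 (log2, SE, limma with Benjamini-Hochberg adjusted p = 0.0497), but the call was kept in 2 of the 12 fits without 1 library, those without EcRi 0.5 M replicate 3 or control 0.5 M replicate 1, with an adjusted p of up to 0.193.

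The 3 lectins that fell on 0.5 M sucrose did so with separate groups. lectin-24Db (FBgn0040102) read 15.2, 15.3 and 28.7 in EcRi-labelled and 66.2, 137 and 93.6 in control libraries, a difference of -2.27 ± 0.48 (log2, SE, limma with Benjamini-Hochberg adjusted p = 0.00627). lectin-28C (FBgn0040099) read 343, 492 and 383 in EcRi-labelled and 1161, 875 and 1158 in control libraries, a difference of -1.39 ± 0.27 (log2, SE, limma with Benjamini-Hochberg adjusted p = 0.00236). The weakly expressed lectin-37Da (FBgn0053532) read 1.01, 2.15 and 1.55 in EcRi-labelled and 9.04, 7.40 and 4.30 in control libraries (limma, Benjamini-Hochberg adjusted p = 0.0226). All EcRi-labelled libraries lay below all controls for these genes. The call of lectin-37Da was lost without control 0.5 M replicate 1 or 2 or EcRi 0.5 M replicate 1 or 3 (adjusted p up to 0.0870).

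Setting 0.5 M against 0.15 M sucrose within the EcRi-labelled libraries, 2 of the 45 genes rose and 4 fell. Among all genes limma called 24.4%, with 14.0% higher and 10.4% lower, against 13.3% of the 45. The share of all genes was 13.5% without EcRi 0.5 M replicate 1, with 11.1% of the 45, and 14.2% without EcRi 0.15 M replicate 2, again with 11.1% of the 45. The 4 that fell were lectins. lectin-24Db read 15.2, 15.3 and 28.7 on 0.5 M and 61.8, 251 and 109 on 0.15 M sucrose in EcRi-labelled libraries, a difference of -2.60 ± 0.48 (log2, SE, limma with Benjamini-Hochberg adjusted p = 0.00343). lectin-28C read 343, 492 and 383 on 0.5 M and 793, 1605 and 802 on 0.15 M sucrose, a difference of -1.32 ± 0.27 (log2, SE, limma with Benjamini-Hochberg adjusted p = 0.00418). lectin-37Da read 1.01, 2.15 and 1.55 on 0.5 M and 15.4, 12.2 and 7.03 on 0.15 M sucrose (limma, Benjamini-Hochberg adjusted p = 0.00296). All 3 were lower in each library on 0.5 M sucrose. The adjacent gene lectin-37Db (FBgn0053533) read 4.04, 4.32 and 3.05 on 0.5 M and 10.1, 12.2 and 13.1 on 0.15 M sucrose in the EcRi-labelled libraries, again without overlap (limma, Benjamini-Hochberg adjusted p = 0.0369). That last call was lost without any 1 of these 6 libraries, with an adjusted p of up to 0.0976.

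The 2 genes that rose with 0.5 M sucrose in the EcRi-labelled libraries were Spn6, by 0.86 ± 0.16 (log2, SE, limma with Benjamini-Hochberg adjusted p = 0.00164), and GNBP1, by 0.73 ± 0.20 (log2, SE, limma with Benjamini-Hochberg adjusted p = 0.0170). Both were higher in each library on 0.5 M sucrose, and the call of GNBP1 was lost without EcRi 0.15 M replicate 1 or 3 or EcRi 0.5 M replicate 2 (limma, Benjamini-Hochberg adjusted p up to 0.0632). Scaling the libraries to a common upper quartile moved the median of all genes in this contrast to -0.23, against -0.02 as deposited, and gave 1 higher and 7 lower among the 45. Quantile normalisation gave 1 higher and 10 lower, with a median of all genes of 0.000.

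Markers of other cell types moved with this contrast. Of the 12 hemocyte markers 1 rose and 5 fell, and He read 23.3, 32.7 and 72.5 on 0.5 M and 155, 339.5 and 99.4 on 0.15 M sucrose in EcRi-labelled libraries. alphaPS4, atilla, lz, a factor of crystal cells, and nimC1, a phagocytic receptor of plasmatocytes, also fell, with log2 differences of -2.515, -1.67, -1.38 and -1.625. The number that fell was 2 without EcRi 0.15 M replicate 2 or EcRi 0.5 M replicate 1 or 2, and 3 without EcRi 0.15 M replicate 1 or 3. Of 9 muscle markers 6 rose, with sums of 34186 to 72133 on 0.5 M and 7532 to 25431 on 0.15 M sucrose. That count was 1 without EcRi 0.5 M replicate 1, 2 without EcRi 0.15 M replicate 1 and 3 without EcRi replicate 2 of either diet, and 4 without EcRi 0.5 M replicate 3 or control 0.5 M replicate 2. The part of these cell types in the lectin results was not tested. lectin-28C shares 31.8% of its exon bases with TwdlE, a cuticle protein gene on the opposite strand, and no source used here gives a strand setting. TwdlE read 12.1, 17.3 and 15.7 on 0.5 M and 34.6, 42.3 and 40.2 on 0.15 M sucrose in EcRi-labelled libraries, a difference of -1.33 ± 0.31 (log2, SE, limma with Benjamini-Hochberg adjusted p = 0.00654), and reads of both genes cannot be told apart in the shared part.

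In controls 0.5 M sucrose raised 1 of the 45 genes, Spn6, which read 491, 340.4 and 442 on 0.5 M and 299.6, 251 and 208 on 0.15 M sucrose, a difference of 0.74 ± 0.16 (log2, SE, limma with Benjamini-Hochberg adjusted p = 0.0269). The groups did not overlap. Among all genes limma called 1.72%, with 1.55% higher and 0.169% lower, against 2.22% of the 45, and 10 of the 45 had an unadjusted p under 0.05. The call of Spn6 was lost, leaving 0 of 45, without control 0.15 M replicate 2 or 3 or control 0.5 M replicate 1 or 3 (limma, Benjamini-Hochberg adjusted p up to 0.136), and without control 0.5 M replicate 2 there were 3. Of the nimrod B genes 4 of 5 had an unadjusted p under 0.05, led by nimB3 at 0.83 ± 0.26 (limma, Benjamini-Hochberg adjusted p = 0.149). That count without control 0.5 M replicate 1 was 2 of 5, and 4 of all 45, with differences of 0.29 for nimB2, 0.47 for nimB3, 0.31 for nimB4 and 0.18 for nimB5, against 0.63, 0.83, 0.57 and 0.48 with all libraries. The 3 genes called without control 0.5 M replicate 2 were Spn6, nimB3 and nimB4, the last 2 at 1.13 ± 0.24 and 0.74 ± 0.20 (log2, SE, limma with Benjamini-Hochberg adjusted p = 0.0143 and 0.0485).

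The interaction, the diet difference in EcRi-labelled libraries minus that in controls, was called for 2 of the 45, lectin-28C and lectin-37Da, both lower, beside 3.92% of all genes, 2.59% higher and 1.33% lower. The share among the 45 was 4.44%, close to that of all genes. The 2 called without control 0.5 M replicate 1 were lectin-28C, lower, and GNBP1, higher, GNBP1 at 0.82 ± 0.20 (log2, SE, limma with Benjamini-Hochberg adjusted p = 0.0299) against 0.52 with all libraries, while lectin-37Da was not called (adjusted p = 0.0782). lectin-28C read 343, 492 and 383 on 0.5 M and 793, 1605 and 802 on 0.15 M sucrose in EcRi-labelled libraries. In controls lectin-28C read 1161, 875 and 1158 on 0.5 M and 939, 608 and 544 on 0.15 M sucrose. Its diet difference was thus lower in the EcRi-labelled libraries by 1.97 ± 0.39 on the log2 scale (interaction of -1.965, SE, limma with Benjamini-Hochberg adjusted p = 0.0149). That call was kept in all 12 fits without 1 library. lectin-37Da read 9.04, 7.40 and 4.30 on 0.5 M and 9.59, 4.52 and 4.10 on 0.15 M sucrose in controls, and its interaction (limma, Benjamini-Hochberg adjusted p = 0.0467) was kept in 2 of 12 such fits, those without control 0.15 M replicate 1 or EcRi 0.15 M replicate 3. lectin-24Db, at -2.54, was not called except without EcRi 0.15 M replicate 1 (limma, Benjamini-Hochberg adjusted p = 0.0239). With all libraries no call was made either for any Idgf or nimrod B gene, with -0.61 for Idgf3, -0.845 for nimB3 and -0.63 for nimB4 (limma, Benjamini-Hochberg adjusted p = 0.267, 0.201 and 0.190). These 3 interactions were -0.32, -0.48 and -0.37 without control 0.5 M replicate 1. Among the 45 genes 9 had an unadjusted p under 0.05 for the interaction, and the median was -0.48, beside -0.05 for all genes, and -0.25, beside -0.03, without control 0.5 M replicate 1.

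**Figure D5:**
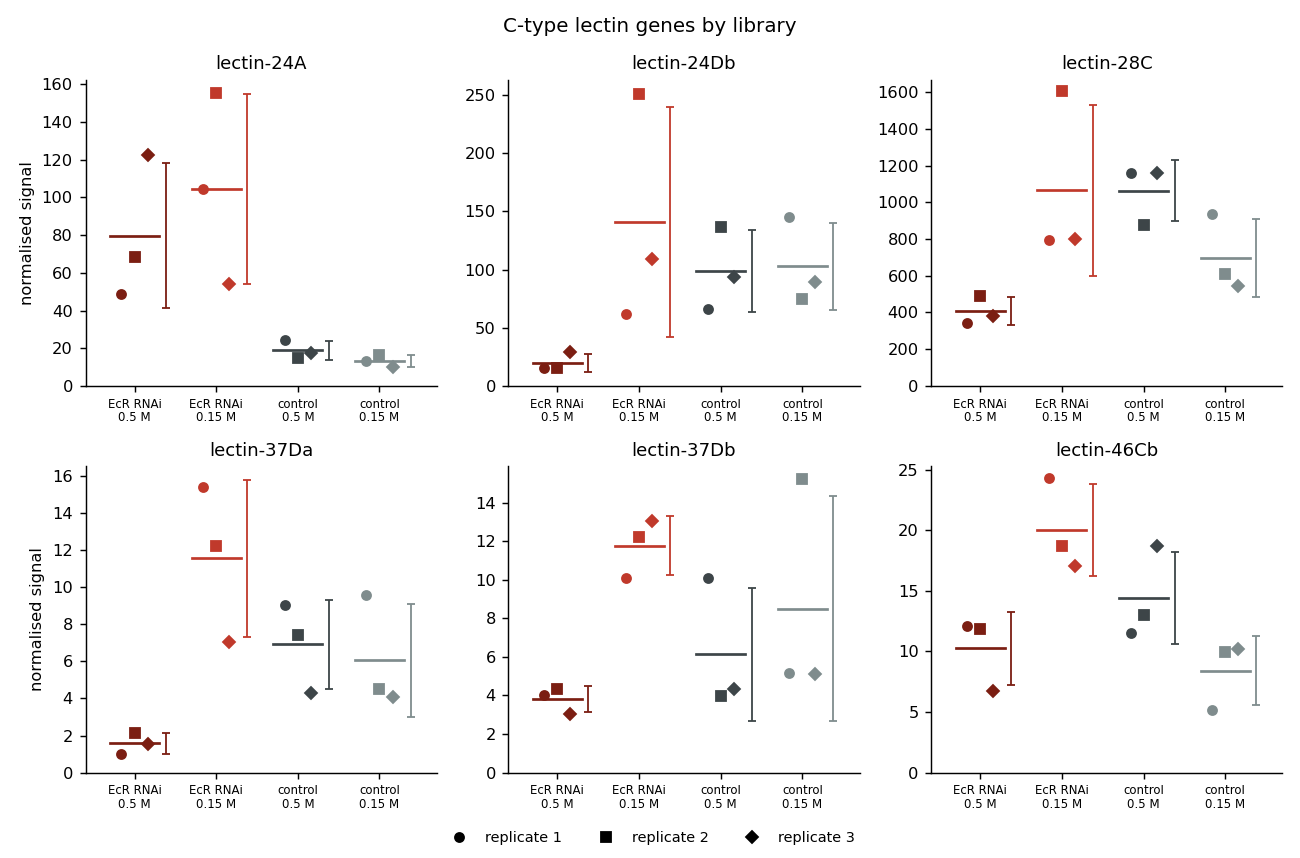
Panels plot the normalised signal of 6 lectin genes in every library, with 0.5 M left of 0.15 M sucrose in each genotype, marker shapes for replicates, lines at group means and bars of 1 SD. The EcRi-labelled libraries on 0.5 M sucrose are the lowest group for lectin-24Db, lectin-28C, lectin-37Da and lectin-37Db, at 343 to 492 for lectin-28C, and lectin-24A is high in both EcRi-labelled groups.

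Of the other lectins, lectin-33A and lectin-46Ca were not called. lectin-33A lay between 2.03 and 14.0 and lectin-46Ca between 4.48 and 21.9 over the 12 libraries. fon (FBgn0032773), which encodes a clot protein that transglutaminase links, had the largest signal per kilobase of exon of the 44 genes with a length, at 7590 to 12609 as a mean of each group. It was followed by nimB3, nimB2, Tsf1 and Spn43Ab. Whether the deposited signal was already scaled to length is not stated, and the order after fon depends on it. By mean signal alone, fon at 22516 was followed by Tsf1 at 12063, nimB2 at 6976 and TepII at 5784, with nimB3 at 2268. On 0.5 M sucrose fon read 19249, 18947 and 13627 in EcRi-labelled and 40298, 21519 and 24275 in control libraries. The EcRi-labelled libraries lay below the controls, but the difference of -0.69 ± 0.27 (log2, SE) was not called (limma, Benjamini-Hochberg adjusted p = 0.0862), except without control 0.5 M replicate 2 (adjusted p = 0.0401). Of 6 listed clotting genes, Pxn rose on both diets. Fbp1, a fat body receptor for serum proteins, fell on 0.5 M sucrose by 1.38 on the log2 scale. On 0.15 M sucrose Fbp1 read 325500, 232720 and 339460 in EcRi-labelled and 556300, 519830 and 670210 in control libraries. Those groups did not overlap either, but Fbp1 was not called there.

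Genes of melanin formation went both ways. Of 8 listed and measured, 2 rose and 3 fell on 0.15 M sucrose, with a median of -0.805, and 0 rose and 3 fell on 0.5 M sucrose, where 2 rose without control 0.5 M replicate 1. Pu, the GTP cyclohydrolase that makes a cofactor of tyrosine hydroxylase, read 450.2, 449 and 418 in EcRi-labelled and 3660.2, 2229 and 3226 in control libraries on 0.15 M sucrose, a difference of -2.76 ± 0.20 (log2, SE, limma with Benjamini-Hochberg adjusted p = 2.23e-07). Sp7, a protease that activates phenoloxidase, fell too, with log2 differences of -2.12 on 0.15 M and -1.99 on 0.5 M sucrose. yellow-f, a dopachrome conversion enzyme, fell on both diets, with log2 differences of -1.88 and -2.61. In the same list yellow-f2 went the other way on 0.15 M sucrose. It read 289, 286 and 303 in EcRi-labelled and 51.5, 68.7 and 60.3 in control libraries there, and its groups overlapped on 0.5 M sucrose. The phenoloxidase genes PPO2 and PPO3 stand in the table under older symbols that the rule did not take. PO45, now PPO2, read 787, 1889 and 1707 in EcRi-labelled and 3714, 3385 and 1964 in control libraries on 0.15 M sucrose and was not called (limma, Benjamini-Hochberg adjusted p = 0.117). CG42640, now PPO3, a phenoloxidase of lamellocytes, read 40.2, 55.5 and 50.2 in EcRi-labelled and 20.2, 16.7 and 19.4 in control libraries on the same diet. It rose by 1.32 ± 0.27 there (log2, SE, limma with Benjamini-Hochberg adjusted p = 0.00273), and on 0.5 M sucrose it differed by -0.07.

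In all, 24 of the 45 genes were called in at least 1 of the 5 contrasts and 21 in none. Of these 21, 19 had a mean signal of at least 10, and their log2 differences of EcRi-labelled from control libraries ran from -0.27 for Spn47C to 0.96 for Spn42De on 0.15 M sucrose and from -0.695 for Spn1 to 1.43 for TepI on 0.5 M sucrose. The 19 were Spn1, Spn100A, Spn4, Spn42Db, Spn42De, Spn43Aa, Spn47C, Spn5, Spn77Ba, Spn88Eb, TepI, TepII, TepIII, Tsf2, Tsf3, GNBP2, nimB1, nimB5 and fon. The furin inhibitor Spn4, at -0.01 and -0.29, and the tracheal melanization inhibitor Spn77Ba, at 0.39 and -0.12, are examples. Without control 0.5 M replicate 1 Spn77Ba was called higher on 0.15 M sucrose and Spn88Eb on 0.5 M sucrose, at 0.39 and 0.68 (limma, Benjamini-Hochberg adjusted p = 0.0397 and 0.0207). That fit, for 0.5 M against 0.15 M sucrose in EcRi-labelled libraries, gave Spn88Eb as higher and Spn5 as lower, at 0.52 and -0.44 (log2, limma with Benjamini-Hochberg adjusted p = 0.0343 and 0.0394). Spn100A was called lower in that contrast without EcRi 0.5 M replicate 3, at -2.22 against -1.24 with all libraries (limma, Benjamini-Hochberg adjusted p = 0.00646). Of the 45 genes, 16 were found to share exon bases with another gene in the Ensembl annotation. Of these 3 shared at least 25% of their length, namely lectin-28C, Spn42Db and TepIII. Spn4, which had no gene model there, could not be checked. Reads of genes with shared bases, and of close relatives within a family, may be counted for each other.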

How the data were processed

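Fat body RNA was sequenced after ribosomal RNA removal, and the authors deposited 1 table of normalised signal per gene and library, the unit used here, whose normalisation, genome build and strand setting no source used here states. Tools listed in the submitters' processing notes, with no role or order, are edgeR, Cufflinks 1.1.0, Bowtie 0.12.7 and TopHat 1.3.2. The signal is not a raw count, its values share no common step within a library, so the depth in reads was not recovered, and no count test was run.

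Groups were taken from the labels. All 10047 genes had a mean signal of at least 1 and were tested in limma 3.58.1 (R 4.3.3) on log2(signal + 1), a scale that understates changes of low genes, with 1 mean for each of 4 groups, a trended and robust variance and Benjamini-Hochberg adjustment over all genes within each of 5 contrasts, called at 0.05. The procedure was tested on simulated data. The genes and lists were chosen with earlier results of these data known. By the rule for named genes, members called in any contrast are given by library, though several of them for only some of the groups. The others are given by range or difference, and some of these also by library. Members with a mean under 10 are given without a fold, apart from the interaction of lectin-37Da in the closing section. Each list is given by its counts and at most 3 genes with the smallest p. He, Hml, atilla, nimC1, TwdlE, yellow-f2, Idgf6, PPO2 and PPO3 were named after their values were seen. The hemocyte sums without Pxn were not planned. Alternatives were pseudocounts of 0.25 and 8, other filters, upper quartile and quantile scaling, library weights, only the groups compared, a replicate block and leaving out each library. Exon lengths, overlaps, gene order and current symbols came from the Ensembl annotation of BDGP6.54 and the gene tables. The gene IDs of 44 of the 45 genes matched a current name, and 13 genes now carry a different symbol.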

Additional observations from a re-analysis of the deposited data

Results flagged for a closer look

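The diet difference (0.5 M minus 0.15 M sucrose) differed between genotypes for 2 of the 45 genes by the interaction term in limma with Benjamini-Hochberg adjustment over all genes. For lectin-28C the diet difference in EcRi-labelled libraries was -1.32, and the interaction was -1.965 ± 0.386 (log2, SE, adjusted p = 0.0149). Its adjusted p reached 0.0496 at most when 1 library was left out. For lectin-37Da the interaction was -2.446 ± 0.655 (log2, SE, adjusted p = 0.0467), on signals of 1.01 to 15.4, and it was kept in 2 of 12 fits that left out 1 library. Without control 0.5 M replicate 1 the interaction was called for lectin-28C and for GNBP1, which was higher, and not for lectin-37Da. For lectin-28C and lectin-37Da the EcRi-labelled libraries on 0.5 M sucrose held the lowest values of all 12 libraries.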

How the results depend on the processing

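Of the 42 single calls among the 45 genes, 25 were kept in every fit without 1 library and under every alternative that tested them. None of the 42 changed direction. Only 38 of the 42 were tested with a mean of at least 10, and 40 with only the groups compared. The interaction count of 2 was 1 with a pseudocount of 8 and with a replicate block, and 5 with library weights. It was also 1 with a mean of at least 10, a filter that removes lectin-37Da before any test. For 0.5 M against 0.15 M sucrose in EcRi-labelled libraries, quantile normalisation gave 11 in place of 6. In controls the count of 1 was 0 when only the groups compared were fitted. Without 1 library the counts ranged from 8 to 22 for genotype on 0.15 M sucrose, 12 to 20 on 0.5 M sucrose, 4 to 8 for diet in EcRi-labelled libraries, 0 to 3 for diet in controls and 1 to 2 for the interaction; the causes were not tested. Replicate numbers did not pair the samples (median correlation of deviations -0.04 for the same number), and the replicate block gave 16, 14, 6, 1 and 1 calls in the 5 contrasts. Among all genes, called counts moved by over 1.5 times from 173 in the control diet contrast, to 60 with only the groups compared and 326 with library weights, and from 394 in the interaction, to 1031 with library weights and 260 with the replicate block, with ranges of 74 to 359 and 141 to 532 without 1 library. For diet in EcRi-labelled libraries the count of 2451 was 1355 without EcRi 0.5 M replicate 1 and 1431 without EcRi 0.15 M replicate 2. The depth in reads was not recovered, which limits what can be said of the weakly expressed lectins. DESeq2 was not run, since no raw counts were at hand.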
